A study of Mus musculus with 16 samples.

Results

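The 34 genes described here mark the cells of blood vessels in the pituitary gland: endothelial cells, which form the inner lining, and the pericytes and smooth muscle cells that surround it. They were chosen by name and are 34 of the 16593 named genes that the array annotation holds. RNA of embryonic mouse pituitaries (day 17.5 of gestation) was read on Illumina bead arrays, 1 array per sample. The mutants (6 arrays) were labelled Insm1 -/- and the controls (10 arrays) Insm1 +/-, all on the strain background C57/BL6;129Ola mixed, so the controls carry 1 mutant allele and wild types are not analysed here. Insm1 encodes a zinc finger factor of developing endocrine and neural cells. Whether a sample came from 1 gland or several is not in the labels, and the p-values cover only the variation among these 16 arrays, which may be partly technical. The question addressed here is whether the vessel genes of the gland differ by genotype, and which of them vary.

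Endothelial cells grow and survive on VEGF-A, a ligand made largely by the tissue around the vessel and read by the endothelial receptors encoded by Kdr and Flt1. Angiopoietins act through the receptor Tek, angiopoietin 1 as an agonist from surrounding cells and angiopoietin 2 as a context-dependent modulator released by endothelium, with Tie1 as a partner of Tek. Endothelial PDGF-B recruits pericytes, which carry its receptor Pdgfrb. The anterior pituitary is fed by portal vessels and a fenestrated capillary bed, through which releasing factors arrive and hormones leave.

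Levels below are log2 normalised intensities, and changes are mutant minus control from a linear model fitted with limma to all tested probes. Adjusted p-values are Benjamini-Hochberg values over all tested probes, and a gene is called where the value is under 0.05. Median raw intensity was 96.5 to 132 in mutants, against 102 to 122 in controls. The Insm1 probe itself read 11.78 ± 0.23 in mutants (SD, n = 6) and 11.42 ± 0.18 in controls (SD, n = 10), a rise of 0.36 (SE 0.10, limma adjusted p = 0.0134). Its position relative to the altered part of the gene is not given, so it does not check the labels. One array, control 10, stood apart through the muscle myosin light chain Myl1, which read 13.47 to 14.06 in mutants, against 13.08 in control 10 and 8.68 to 9.16 in the other controls. The pituitary hormones fell in the mutants, with 6 of 6 tested called lower, against 14.0% of all tested genes. The smallest adjusted p-values were those of Tshb (-4.25), Cga (-2.91) and Gh (-6.75). Of the 6, Lhb and Prl were above background on 0 and 2 of 6 mutants and passed the filter through the controls.

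Of the 34 members, 33 had a named probe, and Cldn5 was not analysed here. They were covered by 51 probes, of which 34 were above background (detection p under 0.01) on at least 6 arrays and were tested, representing 27 genes. The untested probes read at most 5.90 on any array. Endothelial markers were present as the label says: Pecam1, Cdh5, Tie1, Esam and Emcn were above background on all 16 arrays. The pericyte genes Pdgfrb, Rgs5, Cspg4, Kcnj8 and Abcc9 were above background on all 16 arrays as well. Not every member was: the endothelial receptor gene Kdr was above background on 0 of 16 arrays. Flt4 was above it on 2 of 6 mutants and 2 of 10 controls through its better probe. The pericyte gene Higd1b was above it on 0 of 6 mutants and 3 of 10 controls. Of contractile smooth muscle, Tagln, Myh11 and Cnn1 were above background on 0 of 16 arrays, each through a single probe. The label therefore holds for endothelium and pericytes through the genes present on all 16 arrays, and not through every member. For smooth muscle it cannot be read from these 3 probes, and smooth muscle genes outside the 34 were split. Acta2, Mylk, Smtn and Cald1 were above background on all 16 arrays, while Lmod1, Synpo2 and Myocd were above it on no array.

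The vessel genes differed little between the genotypes. Of the 27 tested genes, 2 were higher in mutants, Angpt2 and Icam2, and 0 were lower (limma, adjusted p under 0.05; 3 tested genes had estimates below 0). Over all 9682 tested genes 29.9% were called, 15.9% higher and 14.0% lower, against 7.41% of the vessel genes. The median change of the vessel genes was 0.16, compared with 0.033 over all tested genes, and 24 of the 27 estimates were above 0 (88.9%, against 55.4% of all tested genes). The estimates ran from -0.11 for Plvap to 0.67 for Angpt2. For 24 of the 25 genes that were not called, the 95% confidence interval of the change lay within -1 and 1, so that a 2-fold change in either direction fell outside it. The exception was Pdgfrb. For 18 of the 25 the interval lay within -0.5 and 0.5. In a bulk sample, fewer cells of a type and less RNA per cell cannot be told apart, and every level is relative to the rest of the RNA on its array.

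**Figure D1:**
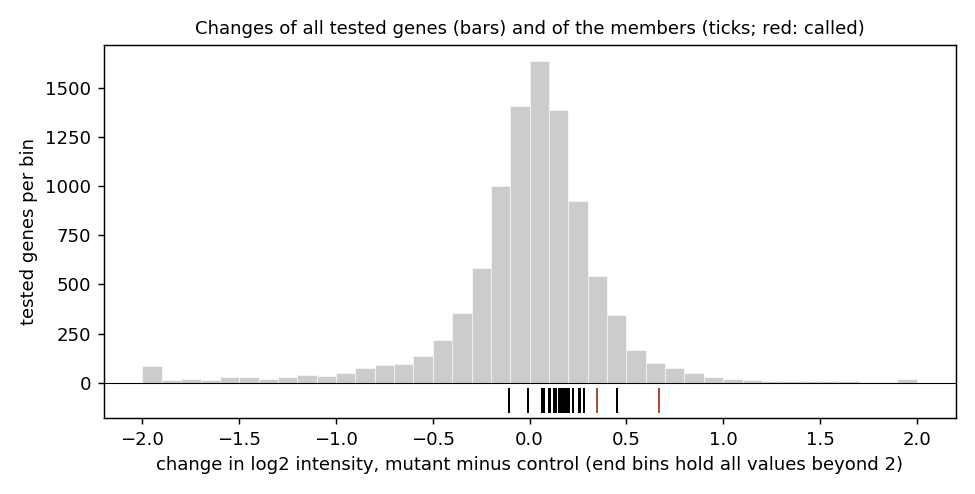
Histogram of the change in log2 intensity, mutant minus control, for the 9682 tested genes (bars), with a tick for each of the 27 tested vessel genes below it (red where called). The vessel genes lie within -0.11 and 0.67, with a median of 0.16 against 0.033 over all tested genes. The end bins hold all genes beyond 2 in size.

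**Figure D2:**
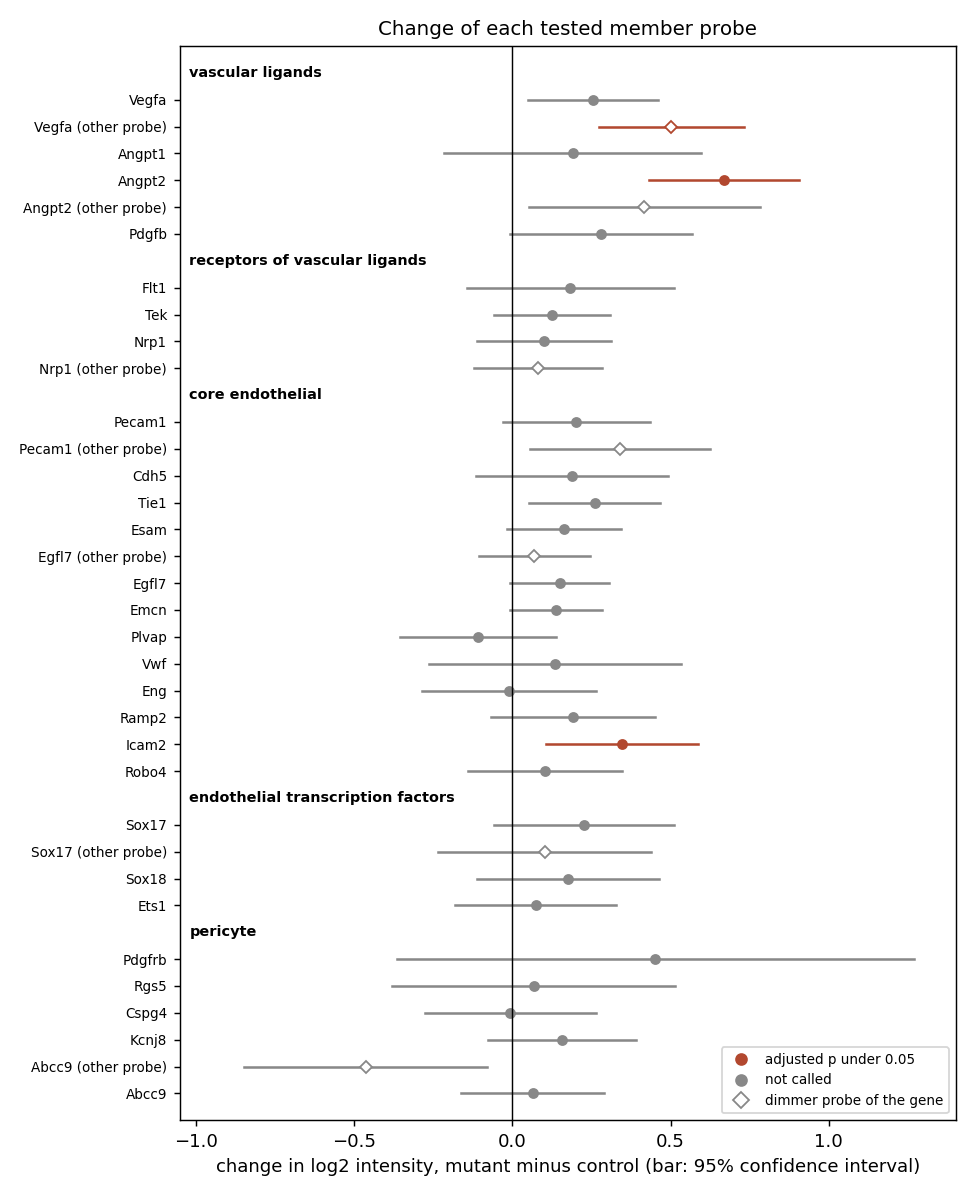
Change in log2 intensity, mutant minus control, with its 95% confidence interval for the 34 tested probes of vessel genes, grouped by role; circles show the probe that represents a gene and open diamonds its dimmer probes. Most intervals span 0, and the called probes (red) are those of Angpt2 and Icam2 and the dimmer probe of Vegfa.

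Among the secreted ligands, Angpt2 (angiopoietin 2, ILMN_1234487) changed most. Its lowest, median and highest levels were 10.87, 11.10 and 11.31 in mutants, against 9.95, 10.43 and 10.87 in controls. The highest control was control 10, which lay just below the lowest mutant, so the groups did not overlap; of all tested genes 9.19% had groups without overlap, and Angpt2 was 1 of 27 here. The mean was 11.08 ± 0.17 in mutants (SD, n = 6) and 10.41 ± 0.25 in controls (SD, n = 10), a rise of 0.67 (SE 0.11, 1.59-fold, limma adjusted p = 0.000203). The rise stood at 0.70 with the slide as a block (limma adjusted p = 0.000193), at 0.89 on slide 1 (limma adjusted p = 0.00253) and at 0.45 on slide 2, where it missed the threshold (limma adjusted p = 0.0901). It was called in all 16 fits that left out 1 array, with changes from 0.62 to 0.72. A second Angpt2 probe (ILMN_2642165) passed the detection limit on 5 of the 6 mutants, against 4 of the 10 controls. It gave 0.42 (SE 0.17), in the same direction but not called (limma adjusted p = 0.0845). That probe passed the threshold with the slide as a block, at 0.48 (limma adjusted p = 0.0478), and without mutant 2, at 0.53 (limma adjusted p = 0.0344).

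Vegfa, which encodes the main growth factor of endothelium, was read by 3 probes that did not give the same call. The brighter probe (ILMN_2484527) read from 11.31 to 11.85 in mutants with a median of 11.52, against 11.08 to 11.54 in controls with a median of 11.31. These ranges overlapped, with 3 of 6 mutants above the highest control, and the change of 0.26 (SE 0.098) was not called (limma adjusted p = 0.0600). With the slide as a block it was 0.33 and passed (limma adjusted p = 0.00375), while within slides 1 and 2 it was 0.26 and 0.41 and did not (limma adjusted p = 0.123 and 0.0844). It also passed without mutant 2 (0.31), control 8 (0.28) or control 9 (0.28). The dimmer probe (ILMN_3121255) read from 8.56 to 8.95 in mutants with a median of 8.75, against 7.81 to 8.53 in controls with a median of 8.30. The groups did not overlap, with the lowest mutant 0.033 above the highest control. Of all tested genes, each read through its brightest probe, 9.19% had groups without overlap. The change of the dimmer Vegfa probe, 0.50 (SE 0.11, 1.42-fold), was called (limma adjusted p = 0.00196). It was 0.49 with the slide as a block (limma adjusted p = 0.00359). On slides 1 and 2 alone it was 0.37 and 0.66 and missed the threshold (limma adjusted p = 0.0586 and 0.0776). The third probe (ILMN_3045723) was above background on 0 of 16 arrays. Which transcript forms the probes read is not given in the files.

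The proximal promoter of Vegfa is printed because the gene is the vessel growth signal that gave a call through 1 of its probes. It is the stretch of 250 bases before a RefSeq start (chr17:46032378-46032627, minus strand, GRCm38.p6), with GC boxes (GGGCGG) and ETS cores (GGAAG), on either strand, in capitals.
Vegfa promoter: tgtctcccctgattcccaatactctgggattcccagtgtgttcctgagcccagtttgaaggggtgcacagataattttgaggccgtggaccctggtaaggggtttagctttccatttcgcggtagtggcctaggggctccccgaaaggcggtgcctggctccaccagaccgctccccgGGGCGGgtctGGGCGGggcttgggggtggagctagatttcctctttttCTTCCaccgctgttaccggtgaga
It holds 2 GC boxes and 1 ETS core, and 59.2% of its bases are G or C. A GC box was present in 32.7% of 32851 mouse promoter stretches of this length. It was present in 10 of the 20 stretches of vessel genes (50%), which belong to 17 genes. A second RefSeq start of Vegfa, not printed, has 1 GC box and 1 ETS core in the same window.

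The other ligands were Pdgfb and Angpt1. Pdgfb, the endothelial signal to pericytes, read 8.79 ± 0.28 in mutants (SD, n = 6) and 8.51 ± 0.28 in controls (SD, n = 10). The difference of 0.28 (SE 0.14) was not called (limma adjusted p = 0.140), and only mutant 2 lay above the highest control. Angpt1, the agonist of Tek, read 6.04 to 7.25 in mutants, against 6.08 to 6.96 in controls, with a change of 0.19 (SE 0.19, limma adjusted p = 0.512). Its interval ran from -0.22 to 0.60, so this probe leaves room for a moderate rise or a small fall. The difference between the responses of Angpt2 and Angpt1 was not tested.

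**Figure D3:**
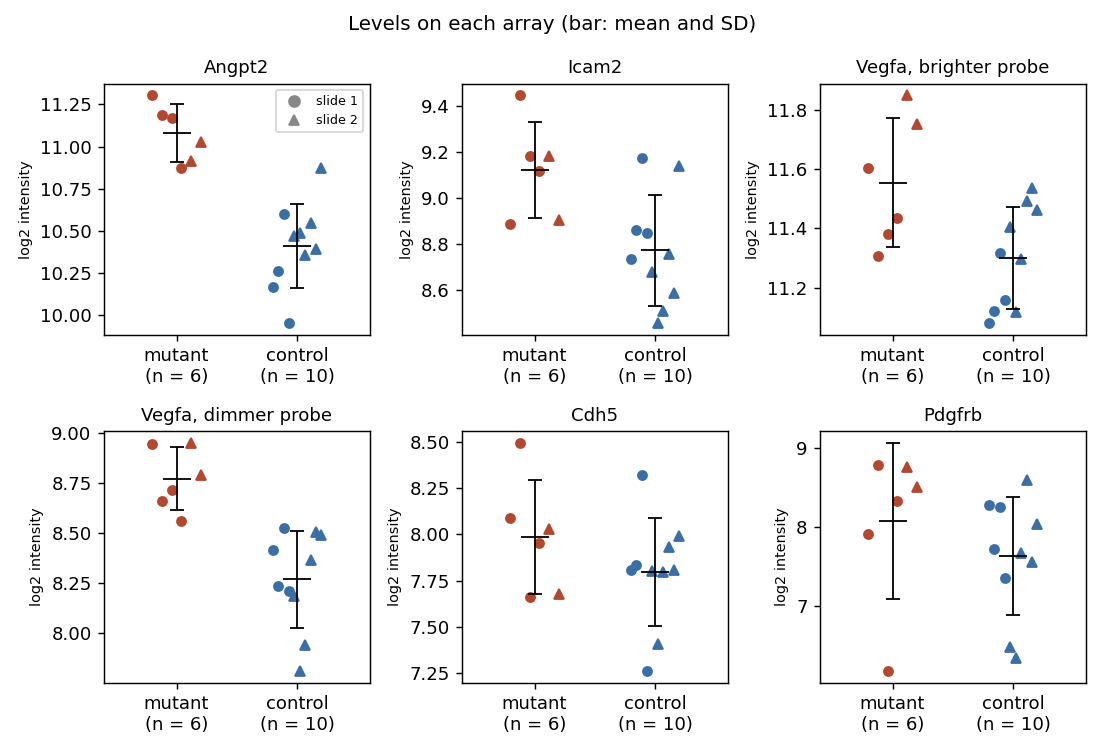
Log2 intensity on each of the 6 mutant (red) and 10 control (blue) arrays for 6 probes, with circles for slide 1, triangles for slide 2, and the mean and SD in black. The mutants lie above every control for Angpt2 and the dimmer Vegfa probe, the groups overlap for Icam2, the brighter Vegfa probe and Cdh5, and Pdgfrb spreads over more than 2 log2 units in both genotypes.

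The receptors for these ligands did not pass the test. Tek, the angiopoietin receptor, read 9.59 ± 0.20 in mutants (SD, n = 6) and 9.46 ± 0.14 in controls (SD, n = 10), a change of 0.13 (SE 0.087, limma adjusted p = 0.319). Tie1, its partner, read from 7.32 to 7.87 in mutants with a median of 7.58, against 7.03 to 7.59 in controls with a median of 7.38. All 6 mutants lay above the control mean and 3 above the highest control, but the change of 0.26 (SE 0.098) narrowly missed the threshold (limma adjusted p = 0.0564). It passed without mutant 1 (0.30), mutant 3 (0.31) or control 10 (0.29), and missed it within slide 1 (0.21) and slide 2 (0.29). Flt1, a VEGF-A receptor that also acts as a trap for the ligand, changed by 0.18 (SE 0.16, limma adjusted p = 0.422), or 0.077 without mutant 1. Nrp1, a co-receptor for VEGF-A and semaphorins that neurons also carry, changed by 0.10 (SE 0.10, limma adjusted p = 0.509) through 1 probe and by 0.08 (SE 0.096) through the other. Kdr, the main signalling receptor for VEGF-A, was above background on 0 of 16 arrays through its single probe, so it has no usable level here. Flt4, the VEGF-C receptor of lymphatic and some capillary endothelium, passed the detection limit on 2 of the 6 mutants, against 2 of the 10 controls, and was not tested.

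The promoters of the angiopoietin receptor pair are printed for comparison with each other, again as the stretch of 250 bases before the RefSeq start and with the ETS core GGAAG, on either strand, in capitals. Tie1 lies at chr4:118489850-118490099 (minus strand) and Tek at chr4:94739039-94739288 (plus strand), both GRCm38.p6.
Tie1 promoter: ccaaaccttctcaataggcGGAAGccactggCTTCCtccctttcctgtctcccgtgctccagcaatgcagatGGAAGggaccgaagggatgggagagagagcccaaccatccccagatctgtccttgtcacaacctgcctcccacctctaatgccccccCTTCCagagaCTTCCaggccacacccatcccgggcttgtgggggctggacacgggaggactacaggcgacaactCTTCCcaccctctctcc
Tek promoter: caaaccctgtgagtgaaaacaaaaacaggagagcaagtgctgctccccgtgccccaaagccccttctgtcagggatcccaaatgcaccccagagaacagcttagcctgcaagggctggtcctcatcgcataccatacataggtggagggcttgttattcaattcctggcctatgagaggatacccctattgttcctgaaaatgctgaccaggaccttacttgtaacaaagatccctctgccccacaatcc
ETS factors are regulators of many endothelial genes. The Tie1 stretch holds 6 ETS cores and the Tek stretch 0, which says only that these letters are not in the Tek window. Of the 34 members, 17 have an entry in the RefSeq promoter table, with 20 starts, and 13 of those 20 stretches hold the core (65.0%, against 64.1% of all promoter stretches).

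Of the 12 core endothelial genes tested, Tie1 among them, 1 rose and 0 fell, with a median change of 0.16. The called share was 8.33%, against 29.9% of all tested genes, or 15.9% counting rises only. Icam2, an adhesion molecule of endothelium and platelets, was the gene that rose. It read from 8.89 to 9.45 in mutants with a median of 9.15, against 8.45 to 9.17 in controls with a median of 8.74. The ranges overlapped, with 3 of 6 mutants above the highest control, control 3, and 8 of 10 controls below the lowest mutant. The change was 0.35 (SE 0.11, 1.27-fold, limma adjusted p = 0.0309). The call was lost with the slide as a block, at 0.30 (limma adjusted p = 0.0560), and within slides 1 and 2, at 0.26 and 0.36 (limma adjusted p = 0.271 and 0.268). It was also lost under cyclic loess normalisation, at 0.31 (limma adjusted p = 0.0519), and when mutant 2 (0.28), mutant 3 (0.33), mutant 4 (0.35), mutant 5 (0.33), control 6 (0.31), control 7 (0.32) or control 9 (0.33) was left out.

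The junction genes of endothelium had small positive estimates. Pecam1, an adhesion molecule at endothelial contacts, read 8.91 ± 0.21 in mutants (SD, n = 6) and 8.71 ± 0.22 in controls (SD, n = 10), a change of 0.20 (SE 0.11, limma adjusted p = 0.194). Its other probe (ILMN_3147074) gave 0.34 (SE 0.14, limma adjusted p = 0.0715) and passed without mutant 3 (0.41) or control 8 (0.38). Cdh5, the cadherin of endothelial junctions, read from 7.66 to 8.49 in mutants, against 7.26 to 8.32 in controls. The ranges overlapped over most of their length, and the change was 0.19 (SE 0.14, limma adjusted p = 0.363), or 0.087 without mutant 2. Esam, another junction molecule, changed by 0.16 (SE 0.085, limma adjusted p = 0.174).

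Other genes of the vessel surface had positive estimates that were not called. Emcn, a sialomucin of capillaries and veins, read 12.07 to 12.26 in mutants, against 11.85 to 12.19 in controls, a change of 0.14 (SE 0.069, limma adjusted p = 0.152). It was the most even of the tested vessel genes, with a within-group SD of 0.114. Egfl7, a secreted factor of endothelium that hosts a microRNA in an intron, changed by 0.15 (SE 0.074, limma adjusted p = 0.146) and by 0.069 through a dimmer probe. Ramp2, the partner of the adrenomedullin receptor, changed by 0.19 (SE 0.12, limma adjusted p = 0.276), and Robo4, a guidance receptor of endothelium, by 0.10 (SE 0.12, limma adjusted p = 0.553), or 0.024 without mutant 2.

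Plvap, Eng and Vwf completed the core genes. Plvap, which forms the diaphragm of fenestrae and so marks the kind of capillary found in endocrine glands, read from 9.96 to 10.80 in mutants with a median of 10.39, against 10.08 to 10.70 in controls with a median of 10.46. The groups overlapped, with mutants on either side of the control range, and the change of -0.11 (SE 0.12, limma adjusted p = 0.545) had an interval from -0.35 to 0.14. Eng, a co-receptor for TGF-beta family ligands, changed by -0.01 (SE 0.13, limma adjusted p = 0.964). Vwf, a clotting factor stored in endothelium, changed by 0.13 (SE 0.19, limma adjusted p = 0.650). The Vwf estimate turned to -0.04 without mutant 2, which read 8.64 against at most 7.84 in the other mutants.

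The endothelial transcription factors were not called either. Sox17, a factor of arterial endothelium, changed by 0.23 (SE 0.14, limma adjusted p = 0.238) and by 0.10 through a dimmer probe, and Sox18, its relative in the same family, by 0.17 (SE 0.14, limma adjusted p = 0.377). Sox17 split the mutants, which read from 7.14 to 8.19 with 3 of 6 above the highest control. Its change was 0.12 without mutant 2, and its SD was 0.41 in mutants (n = 6) and 0.16 in controls (n = 10). Ets1, a factor also used by lymphocytes and other cells, changed by 0.07 (SE 0.12, limma adjusted p = 0.701).

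The endothelial genes were high together on a few arrays and mixed on the rest. Setting each of the 18 tested endothelial genes (core, receptor and transcription factor groups) against its control mean, mutant 2 had 18 of 18 genes above that mean, with a median deviation of 0.48, and was the highest mutant for 13 of them. Mutant 1 had 17 of 18 above it, with a median of 0.16, and mutants 4, 5 and 6 had 12 to 14. Mutant 3 had 7 of 18 above it, with a median of -0.06, and was the lowest mutant for 7. Among controls, control 3 had 18 of 18 above the mean with a median of 0.26, and was the highest control for 11 genes, and control 10 had 17 with a median of 0.16. The other 8 controls had 5 to 12 genes above the mean. Median deviations were -0.06 to 0.48 in mutants, against -0.10 to 0.26 in controls, and so the groups overlapped. The median change of the endothelial genes was 0.16, and 0.11 without mutant 2. It was 0.15 with the slide as a block, 0.15 on slide 1 and 0.11 on slide 2.

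**Figure D4:**
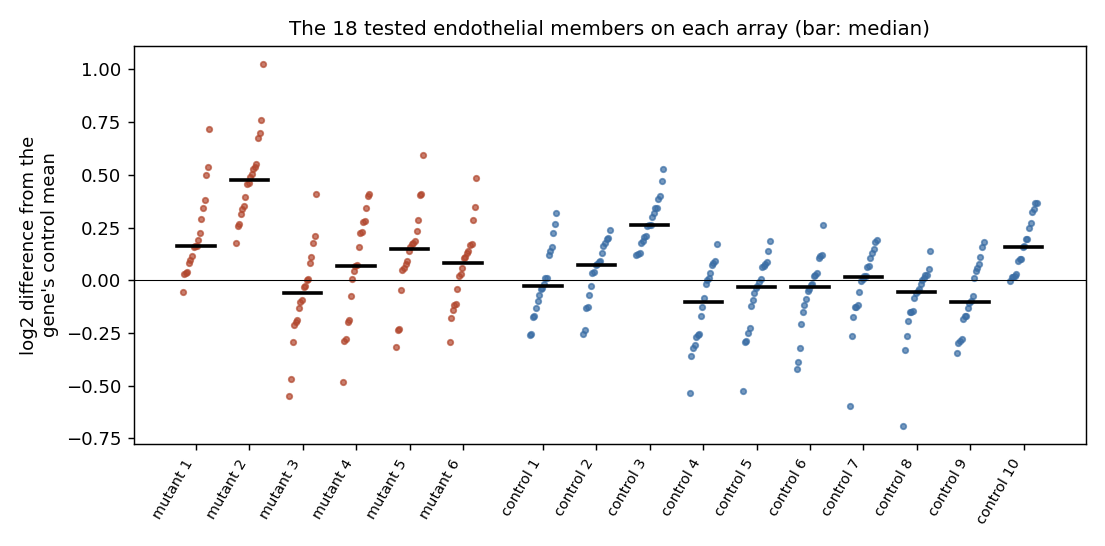
Log2 difference from the gene's control mean for each of the 18 tested endothelial genes (points, sorted within an array) on the 6 mutant and 10 control arrays, with the array's median as a bar. Mutant 2 and control 3 have all 18 genes above 0, and the medians of the other arrays lie between -0.10 and 0.16.

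Of the pericyte genes, 5 were tested and 0 were called higher or lower (limma, adjusted p under 0.05), against 29.9% of all tested genes called. The median change of the pericyte genes was 0.067, or -0.08 on slide 1 and 0.08 on slide 2. It was 0.16 without mutant 5 and 0.045 without mutant 2. Kcnj8 and Abcc9 encode the pore and the regulatory subunit of the vascular ATP-sensitive potassium channel. Kcnj8 read 7.21 ± 0.19 in mutants (SD, n = 6) and 7.05 ± 0.24 in controls (SD, n = 10), a change of 0.16 (SE 0.11, limma adjusted p = 0.327). Abcc9 had probes that went apart. Its brighter probe (ILMN_3104271) changed by 0.06 (SE 0.11, limma adjusted p = 0.705). The dimmer one (ILMN_2623859) read from 5.72 to 6.58 in mutants with a median of 6.45, against 6.16 to 7.27 in controls with a median of 6.73. All 6 mutants lay below the control mean on that probe, and its change of -0.46 (SE 0.18) was not called (limma adjusted p = 0.0676). It passed under cyclic loess (-0.51), with array weights (-0.59), and without control 4 (-0.53) or control 10 (-0.51).

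Pdgfrb, the receptor that pericytes and mesenchymal cells carry for PDGF-B, had the largest within-group SD of the tested vessel genes. It read 7.91, 8.79, 6.17, 8.33, 8.76 and 8.51 in mutants 1 to 6. In controls it ran from 6.33 to 8.60 with a median of 7.69, and controls 5 and 6 were low at 6.48 and 6.33. Its within-group SD of 0.843 exceeded that of 99.4% of all tested genes, while the median was 0.236 over the tested vessel genes and 0.199 over all genes. The change was 0.45 with an interval from -0.37 to 1.27 (SE 0.39, limma adjusted p = 0.428). It was -0.10 on slide 1, 1.19 on slide 2 and 0.83 without mutant 3 (limma adjusted p = 0.0663), none of them called. On mutant 3 the other pericyte genes lay at -0.18 (Rgs5), -0.15 (Cspg4), -0.12 (Abcc9) and 0.12 (Kcnj8) from their control means. Abcc9 was there the lowest of the mutants on both tested probes, at 7.78 and 5.72. The median deviation over the 5 pericyte genes, -0.15, was the lowest of the mutants too, but it counts the low Pdgfrb value itself. Control 5 lay at 0.26 for Abcc9, 0.18 for Rgs5, 0.14 for Kcnj8 and -0.24 for Cspg4. Control 6 lay at -0.31 for Abcc9, 0.29 for Rgs5, 0.10 for Kcnj8 and -0.0074 for Cspg4.

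Rgs5, a G protein regulator abundant in pericytes, was the next most variable, with a within-group SD of 0.452. Mutant 1 read 8.40, against 6.70 to 7.41 in the other mutants and 6.43 to 7.63 in controls. The change was 0.07 (SE 0.21, limma adjusted p = 0.847), and -0.15 without mutant 1. Cspg4, the NG2 proteoglycan of pericytes and glial precursors, changed by -0.01 (SE 0.13, limma adjusted p = 0.980). Higd1b, a mitochondrial protein enriched in pericytes, passed the detection limit on 0 of the 6 mutants, against 3 of the 10 controls, and was not tested.

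Further genes of the same cells were read from lists that held none of the 34 members. Of 14 other endothelial markers tested, 1 rose and 0 fell (7.14% called, against 29.9% of all tested genes), with a median of 0.17. Erg, Clec14a, Myct1 and Cyyr1 of the same list were above background on no array and were not tested. The gene that rose was Lyl1, a factor of endothelium and blood progenitors, by 0.37 (SE 0.13, limma adjusted p = 0.0456). Of 11 arterial, venous and Notch genes of vessels, 36.4% were called, against 29.9% of all tested genes, or 15.9% counting rises only. Of the 11, 4 rose and 0 fell, with a median of 0.26. They were Nr2f2, a factor of venous endothelium and mesenchyme (0.35, SE 0.085), the receptor Notch1 (0.40, SE 0.10), the venous receptor Ephb4 (0.69, SE 0.19) and the arterial connexin Gja5 (0.42, SE 0.14), which was above background on 8 of 10 controls. Notch1 is also a receptor of the gland's own epithelial cells. Dll4, Apln and S1pr1 of this arterial, venous and Notch list were above background on no array. Of 4 lymphatic genes, 50% were called, against 29.9% of all tested genes. Pdpn rose by 0.24 (SE 0.069) and Prox1 fell by 0.68 on the log2 scale (SE 0.12). Lyve1, the receptor of lymphatic endothelium and macrophages, gave 0.03 (limma adjusted p = 0.932). Prox1 is a lymphatic fate factor that endocrine and neural cells use too, and Pdpn is found on epithelia and fibroblasts. Ccbe1 of the lymphatic list was above background on no array.

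Partners of the growth factors and the matrix around vessels were read next. Of 7 VEGF and semaphorin partners, 2 rose: Plxnd1, the semaphorin receptor of endothelium (0.43, SE 0.13), and Pgf, a VEGF relative that binds Flt1 (0.24, SE 0.085). Plxnd1 was above background on 5 of 6 mutants and 4 of 10 controls, so its change is taken largely against background. Of 8 vessel basement membrane genes, 4 rose and 0 fell, with a median of 0.28. They were the matrix glycoprotein Sparc (0.34, SE 0.078), the laminin chain Lamc1 (0.29, SE 0.082), the collagen Col4a1 (0.34, SE 0.10) and perlecan, Hspg2 (0.28, SE 0.094). Epithelia and mesenchyme make these proteins as well. Of 10 hypoxia factors and targets, a list read because Vegfa is one such target, 3 rose and 0 fell, with a median of 0.29. These were the lactate dehydrogenase subunit Ldha (0.38, SE 0.091), the glucose transporter Slc2a1 (0.36, SE 0.097) and Ndrg1 (0.36, SE 0.12). Above background on no array were Sema3e of the partners, Lama4 of the basement membrane genes, and Pgk1 and Bnip3 of the hypoxia genes. The called shares were 28.6% of the partners, 50% of the basement membrane genes and 30.0% of the hypoxia genes, against 29.9% of all tested genes. All of these calls were rises, and 15.9% of all tested genes were called higher. The shares of the partners and of the hypoxia genes were thus near that of all genes for calls in either direction. They lay above the share of all genes called higher, a difference between small lists and all genes that was not tested.

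Among 11 other pericyte and smooth muscle genes, 4 rose and 1 fell, with a median of 0.27, a called share of 45.5% against 29.9% of all tested genes. Acta2 (smooth muscle actin) ranged from 9.46 to 10.75 in mutants, against 7.69 to 10.61 in controls, and rose by 1.51 (SE 0.36, limma adjusted p = 0.00382). The highest control lay within the mutant range, as did control 10 at 9.92. Des (desmin) rose by 0.67 (SE 0.14), Notch3, a receptor of mural cells, by 0.55 (SE 0.12) and Mcam, an adhesion molecule, by 0.37 (SE 0.093), and Mylk, the kinase of smooth muscle myosin, fell by 0.38 on the log2 scale (SE 0.093). Embryonic skeletal muscle uses Acta2 and Des too. Its markers rose in the same samples, with 6 of 6 tested called and the smallest adjusted p-values for Tnnt1 (1.84), Actc1 (4.78) and Myl1 (4.46). Actc1, Myog and Myh8 were above background on 2, 1 and 3 of 10 controls and passed the filter through the mutants, so their changes are taken largely against background. The mean level of all 6 tested muscle markers was 8.97 to 9.93 in mutants, against 6.22 to 8.81 in controls, while Ckm was above background on no array. The part of muscle in these rises was not tested.

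Markers of other cells around vessels were read beside these results. Macrophage markers rose, with 4 of 5 tested called higher (Tyrobp by 0.58, Aif1 by 0.49, C1qb by 0.46 and C1qa by 0.39), a median of 0.46, and a mean level of 7.69 to 8.08 in mutants, against 7.29 to 7.57 in controls. Mesenchyme markers were mostly not called, with 0 of 8 higher, Prrx1 lower (-0.43, SE 0.13) and a median of 0.13. Their mean level was 9.41 to 10.12 in mutants, against 9.29 to 10.04 in controls. Of 4 erythroid markers tested, which track blood held in the vessels, 0 were called (limma, adjusted p under 0.05). Hba-a1 could not show a rise, since it read 15.46 on all 6 mutants, which was also the control maximum. The changes of the others were 0.39 (Hbb-y), 0.35 (Slc4a1) and 0.10 (Alas2). The mean level of all 4 was 10.87 to 11.53 in mutants, against 10.28 to 11.40 in controls. Of 3 neuron markers tested, Elavl4, an RNA-binding protein that endocrine cells also make, fell by 0.39 on the log2 scale and the other 2 were not called. Their mean level was 7.42 to 8.11 in mutants, against 7.90 to 8.14 in controls. The neuron markers Tubb3, Snap25 and Nefl, the macrophage marker Fcer1g and the erythroid markers Hbb-bh1 and Epb42 were above background on no array. The called shares were 80% of macrophage, 12.5% of mesenchyme and 33.3% of neuron markers, against 29.9% of all tested genes. The macrophage calls were all rises, against 15.9% of all tested genes called higher. The part of these cells in the changes of the vessel genes was not tested.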

How the data were processed

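RNA from 16 pituitary samples was measured on Illumina mouse bead arrays. Per the file headers, the deposited raw table gives average bead intensity and a detection p-value, for 25697 probes. Its array medians differ, so the deposited intensities were not scaled between arrays. The submitters' processing notes name GenomeStudio without a version. A further deposited matrix of intensity values ranks probes as the raw table does (Spearman correlation 1), with a median of 37.1 on each array, and served only as an alternative. The steps behind it are not given in the sources used here.

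Background was corrected by the nec function of limma (offset 16, negative control parameters inferred from the detection p-values). The deposited intensities so corrected were put on the log2 scale and quantile-normalised with limma 3.58.1 in R 4.3.3. Probes with a detection p under 0.01 on at least 6 arrays were kept (13813), and genotype was fitted as the only term with lmFit and eBayes. P-values were adjusted by Benjamini-Hochberg over these probes. A gene was read through its tested probe with the highest mean, which gave 9682 genes. Probes were named through the platform annotation: 23978 have 1 symbol, 0 several and 1719 none. Older symbols in the lists were looked up among RefSeq synonyms (GRCm38.p6). The fit was checked on simulated data. Every tested probe of every member is reported, whatever its value. From the other lists come the counts and the 3 called genes with the smallest adjusted p, or all where 5 or fewer were called. Outside that rule, Smtn, Cald1, Lyve1, the erythroid markers, Lhb, Prl, Myog, Myh8 and the genes above background on no array are named too.

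The 2 array slides differ in makeup: 4 mutants with 4 controls on slide 1, and 2 mutants with 6 controls on slide 2. Key changes are therefore given within each slide too, and from a fit that blocks on slide. Other alternatives covered background correction, normalisation, filter, variance model, array weights, probe choice, replicate number as a block, and each array left out. The members and lists were chosen with earlier results of these data known. The number of arrays limits the precision. Promoter sequences are from RefSeq, GRCm38.p6, and were cut to the bases before the start.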

Additional observations from a re-analysis of the deposited data

Results flagged for a closer look

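On 4 of the 68 sets of values (34 tested probes in each genotype) a single array stood far from the others, with a gap to its neighbour above Dixon's 95% critical value. Chance alone flags about 1 set in 20. All 4 arrays were mutants. Mutant 2 read 11.90 for Esam, against 11.45 to 11.61 in the other mutants. Mutant 3 read 6.17 for Pdgfrb, against 7.91 to 8.79. Mutant 4 read 7.56 for Kcnj8, against 7.03 to 7.22. Mutant 5 read 11.14 for the second Nrp1 probe (ILMN_2669912), against 11.51 to 11.60. None of these genes was called in the comparison.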

How the results depend on the processing

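Against 2 vessel genes called higher with all arrays, 1 was called on slide 1, 0 on slide 2 and 1 under cyclic loess, and from 1 to 3 with 1 array left out; 0 were called lower in these fits or in the other alternatives run. Angpt2 was called in every alternative except slide 2 alone and the dimmer probe. The brighter Vegfa probe also passed without background correction (0.25) and with a trended, robust variance model (0.26). Over all genes, 811 were higher on slide 1, and 267 higher and 479 lower on slide 2, against 1540 and 1351 with all arrays. The median change of the vessel genes stayed between 0.10 and 0.19, that of the endothelial genes between 0.11 and 0.18, and that of the pericyte genes between -0.08 and 0.16. Some estimates that were not called turned sign, none of them passing the threshold. On slide 2 these were Vwf (-0.21), Eng (0.044), Robo4 (-0.0045), Nrp1 (-0.19, and -0.14 through its second probe), Rgs5 (-0.33) and the second Egfl7 probe (-0.015). On slide 1 they were Sox18 (-0.052), Pdgfrb (-0.10) and Abcc9 (-0.078). Abcc9 also turned with the slide as a block (-0.00018) and through its dimmer probe (-0.46), and Cspg4 with array weights (0.020). With 1 array left out, Vwf ranged from -0.044 to 0.22, Eng from -0.12 to 0.097, Ets1 from -0.019 to 0.13, Rgs5 from -0.15 to 0.19, Cspg4 from -0.094 to 0.075, and the second Sox17 probe from -0.029 to 0.19. The cause was not tested.

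Samples of equal number in both genotypes were on the same slide in 6 of 6 pairs. Those numbered 1 to 4 also lay in neighbouring positions on slide 1, while those numbered 5 and 6 lay apart on slide 2. The labels give nothing else that samples of equal number share. The correlation of their deviations from the group means ran from 0.0395 to 0.478, with 1 of 6 pairs at or under 0.1. The main fit did not take the numbers as pairs, and these correlations do not settle whether they are. As a hint from the data, 5 of 6 mutants and 5 of 6 controls correlated best with the sample of their own number. With the replicate number as a block, over the 12 arrays that share numbers, 3 vessel genes were higher and 0 lower (Angpt2, Icam2 and Vegfa), with 1561 genes higher and 1409 lower over all. Eng turned to 0.0042 and Abcc9 to -0.050 in that block fit, while the brighter Vegfa probe (0.35, limma adjusted p = 0.0168) and the second Angpt2 probe (0.51, limma adjusted p = 0.00602) passed in it.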
